A study of Arabidopsis thaliana with 6 samples.

Results

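The genes described here are the nuclear genes that the deposited table does not class as protein coding: 160 of the 19807 genes it lists. They were chosen by annotation alone, as every gene with a filled biotype other than protein_coding, without 18 genes of the plastid and mitochondrial genomes and without 2 loci named in advance, of which the table lists 1. By biotype they were 82 ncRNA, 38 lncRNA, 18 nontranslating_CDS, 10 miRNA, 10 snoRNA, 1 snRNA and 1 tRNA genes. No measured value is part of this rule, but it was set with earlier results of these data known. How the authors chose the genes to list is not stated in the sources used here. Poly-A selected RNA was sequenced from whole Arabidopsis thaliana seedlings, 8 days old and kept in continuous light on plant nutrient medium. The groups were Col-0 wild type, replicates 1 to 3, and the splicing factor mutant prp8a-14 (written prp8-14 in the genotype field), replicates 4 to 6. The mutant was 1 allele, and the change in its sequence is not described in the labels. The design calls the 6 libraries biological replicates, so p-values measure the spread between these seedling samples.

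PRP8 sits at the centre of the spliceosome, where the splice sites of an intron are held against the U2, U5 and U6 small nuclear RNAs. RNAs that are not translated use the same machinery: many long non-coding transcripts and primary microRNA transcripts of plants contain introns, and plant snoRNAs are often processed from longer polymerase II transcripts. A plant miRNA is cut from a hairpin by DCL1 with HYL1 and SE, and TAS transcripts are cut by a miRNA and turned into phased small RNAs by RDR6 and DCL4. Mature miRNAs, snoRNAs, snRNAs and tRNAs carry no poly-A tail, so a poly-A library reports their longer polyadenylated precursors or neighbours and not the mature RNAs.

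Counts on the listed genes totalled 49126331 to 63069817 per library, and levels are given in CPM (counts relative to the authors' scaled library size). The genes were of low abundance, with a median of 3.38 CPM against 18.4 over all listed genes, and each had at least 23 counts in every library. The annotation was compared with RefSeq (assembly TAIR10.1), which held all 160. All 142 genes outside the nontranslating_CDS class had the same biotype there, whereas all 18 nontranslating_CDS genes were protein coding in RefSeq and are taken apart below. The table held 82 of 221 nuclear ncRNA loci of RefSeq, but 38 of 3480 lncRNA, 10 of 326 miRNA, 10 of 287 snoRNA, 1 of 82 snRNA and 1 of 625 tRNA loci. In whole seedlings, fewer cells of a type and less RNA per cell cannot be told apart. Photosynthesis markers were higher in the mutant (8 of 8 rose, with summed levels of 22596 to 23620 CPM for wild type and 31356 to 35028 CPM for prp8a-14). Under quantile normalization 6 of them rose, the median log2 change was 0.30 in place of 0.62, and RBCS1A (-0.03) and PSAD1 (0.07) lost their calls. Root markers were mixed (2 of 10 rose and 5 fell, summed level 267 to 297 and 346 to 359 CPM, none at 0). Without IRT1, an iron transporter gene left out after the values were seen, the other 9 summed to 198 to 218 CPM for wild type and 183 to 199 CPM for prp8a-14, and the part of tissue make-up in the results below was not tested.

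The mature miRNAs of the MIR genes on which the results turn are shown first, as RefSeq annotates them on TAIR10.1, written 5′ to 3′ with the seed (bases 2 to 8) in capitals. The first was cut from a transcript that fell clearly, the next came from a weaker fall, the third is its relative, and the last pair come from loci that overlap a long RNA that rose.
miR163: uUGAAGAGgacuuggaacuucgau
miR157c-5p: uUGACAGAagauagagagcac
miR156c-5p: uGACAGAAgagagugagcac
miR850: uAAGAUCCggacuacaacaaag
miR863-3p: uUGAGAGCaacaagacauaau

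The seeds of miR157c-5p and miR156c-5p overlap, shifted by 1 base. The seed of miR157c-5p was shared by 3 RefSeq MIR loci and that of miR156c-5p by 11, while the seeds of miR163, miR850 and miR863-3p each belonged to 1 locus. RefSeq gave a mature sequence for all 10 MIR genes, with 16 distinct seeds among them.

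The comparison asked which of these RNAs differed in level when PRP8A was mutated. Of the 160 genes 29 passed the threshold (limma with an intensity trend on the log2 values, Benjamini-Hochberg adjusted p under 0.05 over all listed genes), 11 higher and 18 lower in prp8a-14. That is 18.1%, against 35.2% of all listed genes, where 17.9% rose and 17.3% fell. In limma without trend the shares were nearer, 25.6% against 29.5%. With the trend, the share was below that of all listed genes at both higher and lower levels. Among genes with a mean of at least 5 CPM 24.1% passed (13 of 54), against 38.4% of all listed genes of that level. Below 5 CPM 15.1% passed (16 of 106), against 22.9%. These classes do not match level: median levels in the upper class were 12.5 CPM for these genes and 26.2 CPM for all listed genes. The 3 libraries of each genotype did not overlap for 63 genes, 39.4%, against 48.1% of all listed genes. The median log2 change was -0.02, beside 0.00 over all listed genes. The balance of rises and falls depended on the scaling, with 19 up and 13 down under quantile normalization and 8 up and 31 down with library totals. Only 2 genes, AT3G27884 and SYTD, passed with a change of at least 2-fold, which 2.33% of all listed genes did.

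**Figure D1:**
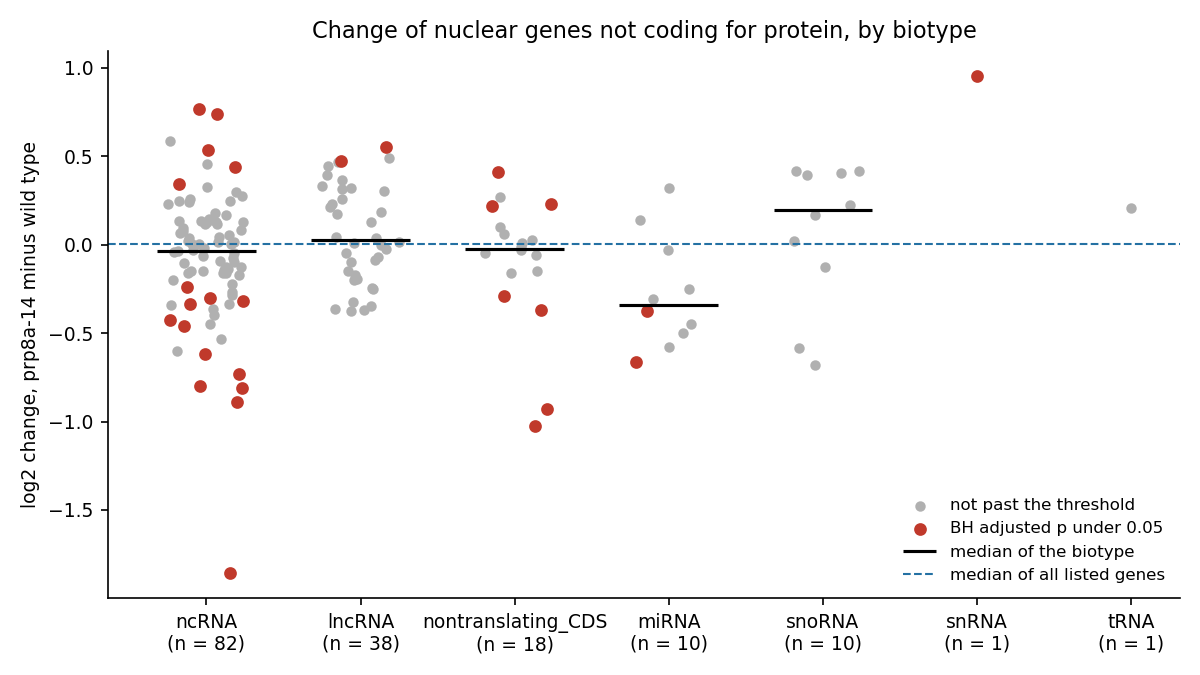
Log2 change in level (prp8a-14 minus wild type) of each of the 160 genes, by biotype; red points passed the threshold, black bars are biotype medians and the dashed line is the median of all listed genes. The ncRNA class held 12 falls and 5 rises, the lncRNA class 2 rises, and the miRNA median of -0.34 lay below the others.

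Among the 82 ncRNA genes, which include long transcripts of mostly unknown function, 5 rose and 12 fell (20.7% passed). Of all listed genes 35.2% passed, where 17.9% rose and 17.3% fell. The median log2 change of the ncRNA genes was -0.04, and 0.02 under quantile normalization. The ncRNA genes with several exons gave 1 rise and 7 falls among 51 genes (15.7% passed). Those with 1 exon gave 4 rises and 5 falls among 31 (29.0% passed). Both shares were below that of all listed genes. Median changes were -0.08 and 0.04, and the difference between these classes was not tested.

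AT3G27884 showed the largest fall. It stood at 6.14, 7.98 and 5.96 CPM in the wild type libraries and 2.08, 1.67 and 1.74 CPM in the mutant libraries. Every mutant library was below every wild type library. Its log2 change was -1.86 (SE 0.16; limma with BH, adjusted p = 5.4e-06), a 3.63-fold fall. RefSeq gives this gene 3 transcripts with up to 4 exons, and 1 of them keeps as exon what the others remove.

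AT4G36648, one of the 3 most abundant ncRNA genes, fell with the smallest adjusted p of the 160. Its levels were 103, 101 and 104 CPM in the wild type libraries and 54.9, 61.6 and 58.7 CPM in the mutant libraries. The groups were far apart, and within each genotype the libraries lay close together (SD 1.54 and 3.36 CPM, n = 3 each). The level fell 1.75-fold, a log2 change of -0.81 (SE 0.05; limma with BH, adjusted p = 5.3e-07).

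AT5G07322, a gene with 1 exon, fell to a similar degree. It stood at 23.4, 24.8 and 22.4 CPM in the wild type libraries and 10.1, 13.5 and 14.9 CPM in the mutant libraries. The mutant libraries were all lower but more spread. Its log2 change was -0.89 (SE 0.12; limma with BH, adjusted p = 0.00013).

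AT4G13495 moved the other way and was the most abundant of the 160. It stood at 95.4, 94.2 and 93.7 CPM in the wild type libraries and 156, 169 and 149 CPM in the mutant libraries. All mutant libraries were above all wild type libraries. On the log2 scale it rose by 0.74 (SE 0.05; limma with BH, adjusted p = 1.1e-06), a 1.67-fold rise. Per kilobase of its longest transcript (876 bases) it also had the highest mean level of the 160, 144 CPM per kb. MIR414 had 105, AT1G10682 84.6, GUT15 61.5 and AT4G36648 38.1 CPM per kb.

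The ends of introns of these genes are shown because PRP8 acts there. Each line runs from the exon into the 5′ end of the intron, or from the 3′ end of the intron into the next exon, with the first or last 2 bases of the intron in capitals, read from RefSeq on TAIR10.1.
AT3G27884 intron 1, 5′ end: tctgactgcgGTttgctactaaccc
AT3G27884 intron 1, 3′ end: ttttgcggctggtttAGgtgatgtaag
AT4G36648 intron 1, 5′ end: tgaagatctgGTaaattatggcttc
AT4G36648 intron 1, 3′ end: gttgttttcgattccAGatctgatctt
AT4G13495 intron 3, 5′ end: tgtgtcaacgGTacgtcttcttttg
AT4G13495 intron 3, 3′ end: agtatcttcctcaccAGatgatggggt

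The introns shown are 505, 98 and 2621 bases long. All have the usual GT and AG ends, as did all 32 introns of the ncRNA and lncRNA genes that passed the threshold. Over the 133 annotated introns of the ncRNA class 97.7% began with GT and ended with AG, and over the 113352 introns of all listed nuclear genes 98.7% did.

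AT4G13495 overlaps 3 MIR loci on its own strand. MIR850 and MIR5026 lie wholly within its intron 3. Of the 303 bases of MIR863, 178 lie in exons of AT4G13495 and the rest lie outside that gene. MIR850 (MIR850A in the table) has its own row. It stood at 5.92, 4.53 and 4.32 CPM in the wild type libraries and 5.57, 5.52 and 5.00 CPM in the mutant libraries, with overlapping groups. Its log2 change was 0.14 (95% interval -0.16 to 0.43; limma with BH, adjusted p = 0.46), which did not pass, while the log2 change of AT4G13495 had an interval of 0.64 to 0.85. The difference between these 2 genes was not itself tested. The MIR850 row may also hold reads of AT4G13495 RNA that keeps intron 3, which the deposited counts cannot tell apart.

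**Figure D2:**
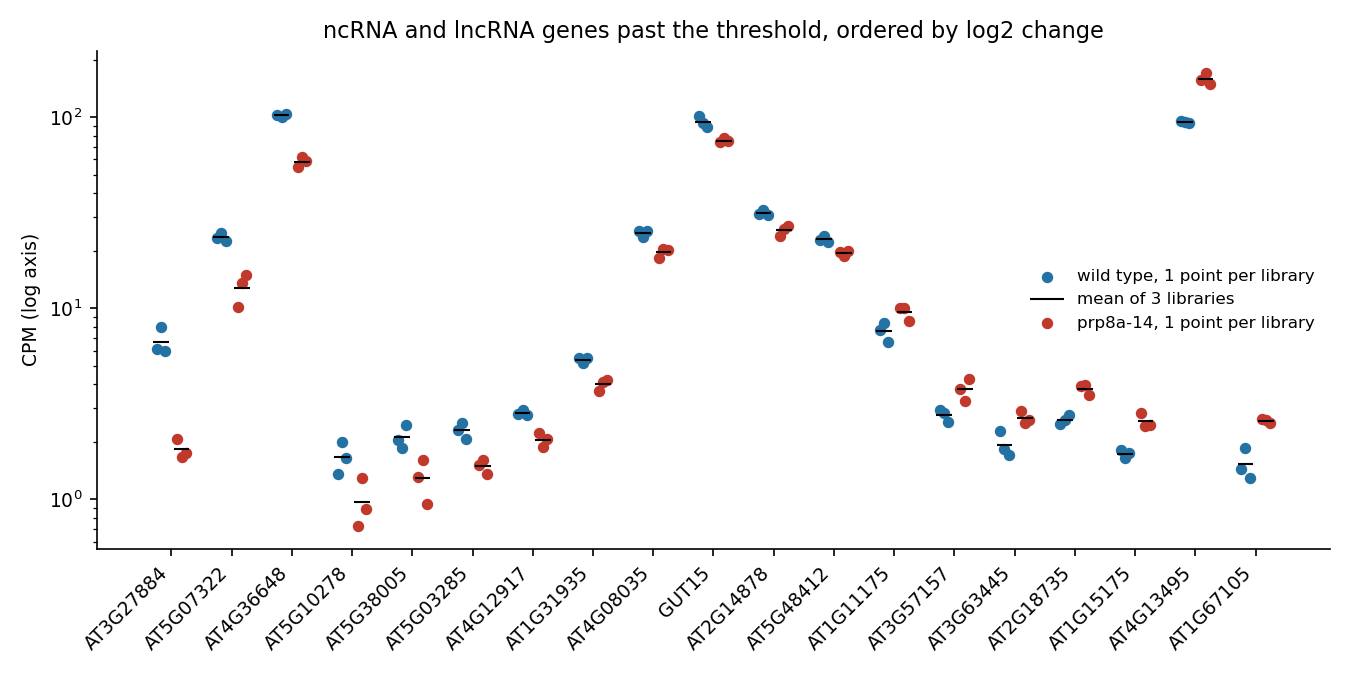
Level in CPM (log axis) of the 17 ncRNA and 2 lncRNA genes that passed the threshold, 1 point per library and a bar for the mean of 3, ordered from the largest fall to the largest rise. In all of them the wild type and prp8a-14 libraries did not overlap, and AT4G36648, GUT15 and AT4G13495 were the most abundant.

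GUT15, named as a gene with an unstable transcript and the other abundant ncRNA, fell moderately. It stood at 101, 93.0 and 88.5 CPM in the wild type libraries and 73.9, 77.3 and 74.9 CPM in the mutant libraries, again without overlap. The log2 change was -0.32 (SE 0.05; limma with BH, adjusted p = 0.00055). Falls of -0.24 to -0.43 were also found in AT4G08035, AT2G14878, AT5G48412 and AT1G31935, which had mean levels of 4.69 to 28.5 CPM. These 4 kept their calls in every alternative processing tried.

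The other 4 ncRNA genes that fell were rare, with mean levels of 1.32 to 2.44 CPM. AT5G10278 stood at 1.36, 1.99 and 1.65 CPM in the wild type libraries and 0.724, 1.29 and 0.888 CPM in the mutant libraries, a log2 change of -0.80 (limma with BH, adjusted p = 0.034). It overlaps MYB92, a transcription factor gene on the same strand, over 155 bases. MYB92, with a mean level of 12.7 CPM, itself fell by 0.21 on the log2 scale (limma with BH, adjusted p = 0.0497). Reads of these overlapping genes cannot be told apart with certainty here. AT5G10278 also overlaps the lncRNA locus AT5G01695, which is not listed, over 458 bases on the same strand. AT5G38005, AT5G03285 and AT4G12917 had log2 changes of -0.73, -0.62 and -0.46. All 4 lost their calls under quantile normalization and on dropping mutant replicate 6. AT5G10278 also lost it on dropping wild type replicate 2 or 3 or mutant replicate 4, AT5G38005 wild type replicate 1 or 3, AT5G03285 wild type replicate 2, and AT4G12917 any 1 wild type library or mutant replicate 5. Over all alternatives their log2 changes reached as near to 0 as -0.44, -0.45, -0.40 and -0.32 in the order given, with adjusted p up to 0.13 (AT5G10278).

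Rises were found in AT1G67105, AT2G18735, AT3G57157 and AT1G11175, all with 1 exon. AT1G67105 stood at 1.44, 1.85 and 1.29 CPM in the wild type libraries and 2.62, 2.60 and 2.502 CPM in the mutant libraries. The mutant libraries were nearly equal and all above wild type, and the log2 change was 0.77 (SE 0.18; limma with BH, adjusted p = 0.0072). AT2G18735 had 2.62 CPM ± 0.142 in wild type (SD, n = 3) and 3.80 CPM ± 0.255 in the mutant, and rose by 0.53 on the log2 scale. AT3G57157 and AT1G11175 rose by 0.44 and 0.34 on the log2 scale. Library totals ended both calls, as did dropping wild type replicate 1 or 3 or mutant replicate 4. That of AT3G57157 also ended on dropping wild type replicate 2 or mutant replicate 6, and that of AT1G11175 on dropping mutant replicate 5 or the trend. Over the alternatives their log2 changes ran from 0.34 to 0.54 and from 0.25 to 0.42, with adjusted p up to 0.13 and 0.11.

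The TAS genes did not pass. TAS1A stood at 8.60, 8.56 and 8.64 CPM in the wild type libraries and 8.25, 7.96 and 7.31 CPM in the mutant libraries, and TAS2 at 7.77, 7.85 and 7.22 CPM and 6.81, 6.58 and 6.47 CPM. In both genes the mutant libraries were all lower, by a log2 change of -0.13 (95% interval -0.32 to 0.06) and -0.20 (-0.40 to -0.002). TAS2 had an unadjusted p of 0.048 and an adjusted p of 0.11 (limma with BH), and passed with library totals (0.023) and in limma without trend (0.035). TAS1B, TAS1C and TAS3 (TASIR-ARF in the table) had log2 changes of -0.03, -0.15 and 0.06, with overlapping groups and intervals of -0.32 to 0.27, -0.46 to 0.17 and -0.16 to 0.27. Of the 5 TAS genes 0 passed with limma, against 35.2% of all listed genes. Among these 5, 1 had an unadjusted p under 0.05, and 0 passed with voom weights. Of the 19807 listed genes 4490 were higher and 4346 lower at that unadjusted level, and 35.0% passed with voom weights. The auxin response factor genes ARF2, ARF3 and ARF4, which small RNAs of TAS3 cut, had log2 changes of 0.06, 0.18 and -0.02, and 0 of these 3 passed with limma or with voom weights (1 with an unadjusted p under 0.05).

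Of the 10 MIR genes 0 rose and 2 fell, 20% against 35.2% of all listed genes. In 8 of 10 MIR genes the log2 change was below 0, and the median was -0.34. At an unadjusted p under 0.05, limma gave 1 higher and 3 lower, and voom weights gave 0 and 1 after adjustment. Over all 19807 listed genes these counts were 4490 and 4346 with limma and 3503 and 3421 with voom weights. Under quantile normalization 1 rose and 1 fell, and only 3 of them reached 5 CPM on average, with a median of -0.03. These values are of poly-A RNA counted on the MIR loci, and nothing in these libraries measures the mature miRNAs. MIR822A and MIR824A overlap protein-coding genes on the opposite strand, AT5G03553 over 337 bases and AT4G24413 over 467. MIR850 lies within AT4G13495 on the same strand. Reads of these pairs cannot be told apart with certainty here.

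MIR163 fell. It stood at 4.23, 5.33 and 4.41 CPM in the wild type libraries and 2.97, 2.58 and 3.24 CPM in the mutant libraries. Each mutant library was below each wild type library. The log2 change was -0.66 (SE 0.14; limma with BH, adjusted p = 0.0040), a 1.59-fold fall, and the call held in every alternative that could be run. RefSeq gives this locus 331 bases and 1 exon. It gives each MIR gene described here 1 exon, so introns of a longer primary transcript would not show in this annotation.

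MIR157C stood at 3.97, 4.43 and 3.56 CPM in the wild type libraries and 3.15, 2.98 and 3.03 CPM in the mutant libraries, without overlap. The log2 change was -0.38 (SE 0.13; limma with BH, adjusted p = 0.047), close to the threshold. Quantile normalization, voom weights and dropping wild type replicate 1 or 2 or any 1 mutant library each ended the call. The log2 change lay between -0.47 and -0.28 over all alternatives, and the adjusted p reached 0.17. MIR156C, its relative, was the rarest MIR gene at 1.17, 1.15 and 0.81 CPM in the wild type libraries and 0.69, 1.16 and 0.53 CPM in the mutant libraries, with overlapping groups and a log2 change of -0.45 (95% interval -1.15 to 0.26).

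The remaining MIR genes did not pass. MIR824A stood at 7.22, 2.37 and 3.40 CPM in the wild type libraries and 2.01, 3.32 and 2.61 CPM in the mutant libraries, so 1 wild type library was higher than the other 5 and the groups overlapped. MIR159B had a log2 change of -0.50 (95% interval -0.95 to -0.06; limma with BH, adjusted p = 0.080), with every mutant library below wild type. MIR822A, MIR162A and MIR167D had log2 changes of -0.30, -0.25 and 0.32. Every mutant library was below wild type for MIR822A and above it for MIR167D (limma, unadjusted p = 0.042, BH adjusted p = 0.098 for MIR167D). The groups did not overlap for 5 of the 10 MIR genes, 50% against 48.1% of all listed genes. MIR414, the most abundant MIR gene at 11.5 CPM ± 0.562 in wild type and 11.2 CPM ± 0.525 in the mutant (SD, n = 3), had a log2 change of -0.03 with a 95% interval of -0.20 to 0.14.

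**Figure D3:**
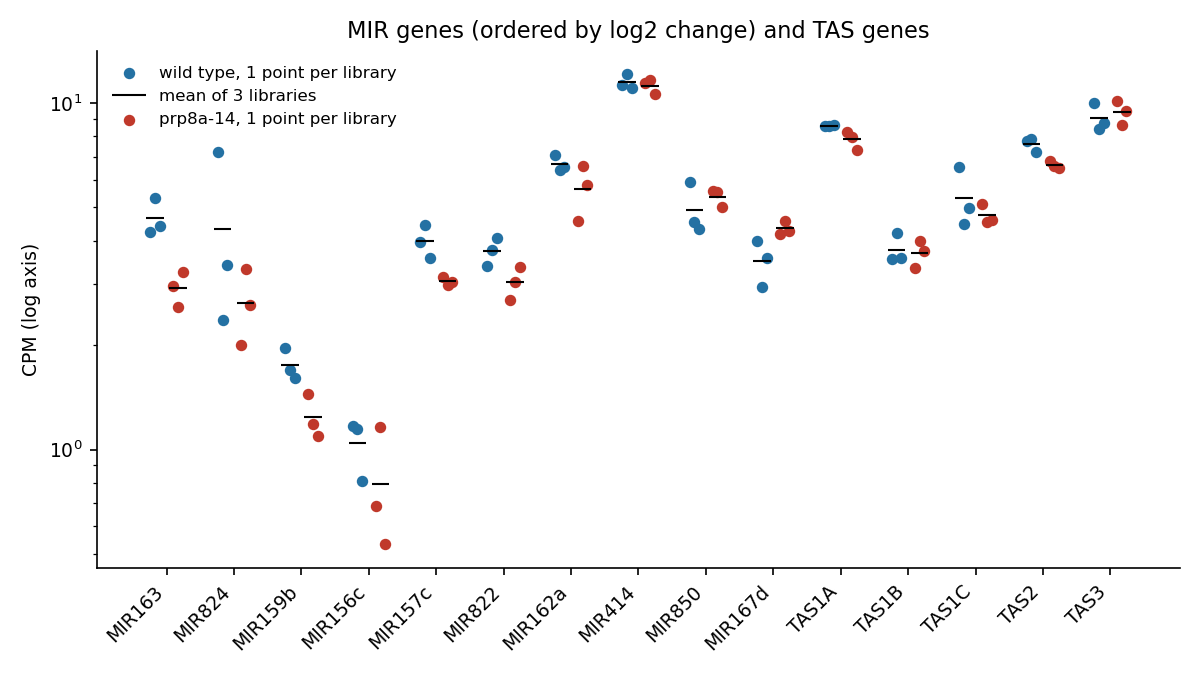
Level in CPM (log axis) of the 10 MIR genes, ordered by log2 change, and of the 5 TAS genes, with 1 point per library and a bar for the mean of 3. MIR163, MIR157C, MIR159B and MIR822A are lower in every prp8a-14 library and MIR167D is higher, but only MIR163 and MIR157C passed the threshold. MIR824 has 1 high wild type library, and the TAS1B, TAS1C and TAS3 groups overlap.

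The sites that these miRNAs pair with were located in RefSeq transcripts as the window with the fewest unpaired bases, and are shown 5′ to 3′ with bases in Watson-Crick pairs in capitals and unpaired or G:U bases in lower case. PXMT1, FAMT and AT3G44870 were chosen after their values were seen.
miR163 site in PXMT1 (AT1G66700): caucgAGUUCCAAGUCCUCUUCAA
miR163 site in FAMT (AT3G44860): AaucgAGUUCCAAGUuuUCUUCAA
miR157c-5p site in SPL9: GUGCUCUCUcUCUUCUGUCAA
miR157c-5p site in SPL4: cUGCUCUCUcUCUUCUGUCAu
miR824-5p site in AGL16: UCuCUUCUCACAAAUGGUCUA

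PXMT1 and FAMT encode methyltransferases of small carboxylic acids or related compounds, the family that miR163 is known to target. PXMT1 stood at 4.18, 3.59 and 4.49 CPM in the wild type libraries and 2.43, 2.31 and 3.29 CPM in the mutant libraries, and fell by 0.62 on the log2 scale (limma with BH, adjusted p = 0.013), the same direction as MIR163. Dropping wild type replicate 3 or mutant replicate 5 ended that call, with log2 changes of -0.78 to -0.48 over the alternatives. FAMT and the neighbouring AT3G44870 had log2 changes of -0.18 and 0.57, below the threshold.

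The SPL genes encode transcription factors of the juvenile to adult transition and are cut by miR156 and miR157. Of 9 listed 1 rose, SPL4, and 0 fell with limma or with voom weights. That is 11.1% with limma, against 35.2% of all listed genes, and the median log2 change of the 9 was 0.12. At an unadjusted p under 0.05, and after adjustment under quantile normalization, 2 were higher and 0 lower. Of the 19807 listed genes 4490 were higher and 4346 lower at that unadjusted level, and 35.8% passed under quantile normalization. SPL4 stood at 5.82, 3.48 and 5.03 CPM in the wild type libraries and 7.40, 7.32 and 6.80 CPM in the mutant libraries, a log2 change of 0.62 (limma with BH, adjusted p = 0.012). SPL9 had a log2 change of -0.05. SPL13A and SPL13B had identical counts in every library and cannot be told apart here. The MYB33 and MYB65 genes (targets of miR159), DCL1 (miR162), AGL16 (miR824) and ARF6 (miR167) did not pass, with log2 changes of -0.12 to 0.11. ARF8, the other target of miR167, had a change of 0.16 (limma with BH, adjusted p = 0.016). It no longer passed on dropping wild type replicate 2, nor with library totals, where its change was 0.06. With library totals ARF6 fell past the threshold.

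Of 15 listed genes for proteins that make or act with small RNAs 5 rose and 1 fell, 40.0% against 35.2% of all listed genes, with a median log2 change of 0.13. DCL4 and SGS3 of the TAS pathway rose by 0.30 and 0.29 on the log2 scale, and HYL1, CBP80 (ABH1) and TGH of primary miRNA processing by 0.26, 0.19 and 0.18. AGO2, an effector of antiviral silencing, fell by 0.34. DCL1, SE and AGO1 had changes of 0.00, 0.02 and 0.06. With library totals 2 rose and 2 fell, the median was 0.04, and HYL1, CBP80 and TGH lost their calls.

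The 38 lncRNA genes gave 2 rises and 0 falls, 5.3% against 35.2% of all listed genes. The median log2 change of the lncRNA genes was 0.03, and -0.07 with library totals. Limma at an unadjusted p under 0.05 gave 4 higher and 1 lower, where all 19807 listed genes gave 4490 and 4346. Voom weights gave 2 and 0 after adjustment, where 35.0% of all listed genes passed. Quantile normalization gave 6 rises, where 35.8% of all listed genes passed. These genes were rare, with a median level of 2.08 CPM and a median SE of 0.19 on the log2 scale, against 0.07 over all listed genes. AT1G15175 stood at 1.81, 1.64 and 1.75 CPM in the wild type libraries and 2.82, 2.41 and 2.44 CPM in the mutant libraries, a log2 change of 0.55 (limma with BH, adjusted p = 0.020). AT3G63445 stood at 2.27, 1.83 and 1.70 CPM and 2.90, 2.52 and 2.61 CPM, a log2 change of 0.48 (limma with BH, adjusted p = 0.048). The groups did not overlap in either gene. For AT3G63445 they were apart by little, with 2.27 CPM in the highest wild type library and 2.52 CPM in the lowest mutant library. For AT1G15175 the call ended on dropping wild type replicate 2 or mutant replicate 4 (log2 change at least 0.38 over the alternatives, adjusted p up to 0.076). For AT3G63445 it ended with library totals and on dropping wild type replicate 2 or 3 or any 1 mutant library (at least 0.33, adjusted p up to 0.15).

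The most abundant lncRNA genes, AT4G38932, AT3G27990 and AT2G26355, had mean levels of 19.1, 14.9 and 12.3 CPM and log2 changes of 0.00, 0.13 and -0.07. The 95% intervals of AT4G38932 and AT2G26355 ran from -0.18 to 0.19 and from -0.22 to 0.09. AT3G27990 did not overlap between genotypes (14.4, 14.1 and 14.1 CPM in wild type, 15.1, 15.5 and 16.1 CPM in prp8a-14) but did not pass (limma with BH, adjusted p = 0.14).

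Most lncRNA genes lie against another gene: 35 of 38 overlap a gene on the opposite strand. For 23 of them that gene is protein coding and listed, giving 25 pairs. Among the 25 partner genes 2 rose and 0 fell, where 35.2% of all listed genes passed. In 0 pairs did both members pass. The partners that rose were RABE1b (TUFA in the table), the chloroplast elongation factor Tu, by 0.58 opposite AT4G20362 (0.16 under quantile normalization), and ASY1, a meiosis protein, by 1.08 opposite AT1G67365. ASY1 stood at 4.54, 4.47 and 4.11 CPM in the wild type libraries and 6.53, 5.93 and 20.5 CPM in the mutant libraries. Most of its change came from mutant replicate 6, without which it was 0.51 (limma with BH, adjusted p = 0.011), and the call ended with voom weights, in limma without trend and on dropping any 1 wild type library. The lncRNA rows had log2 changes of 0.31 and -0.32, neither past the threshold. CKX6, a cytokinin dehydrogenase gene opposite the raised AT3G63445, had a log2 change of 0.11, and AT1G15170, opposite AT1G15175, had 0.00. Over 23 lncRNA genes, each with its widest partner, Spearman's rho between the log2 changes was -0.01, a description over genes measured in the same libraries. No source used here says whether reads were counted by strand, so reads of a pair cannot be told apart with certainty. For 17 of 25 pairs the partner had more counts.

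**Figure D4:**
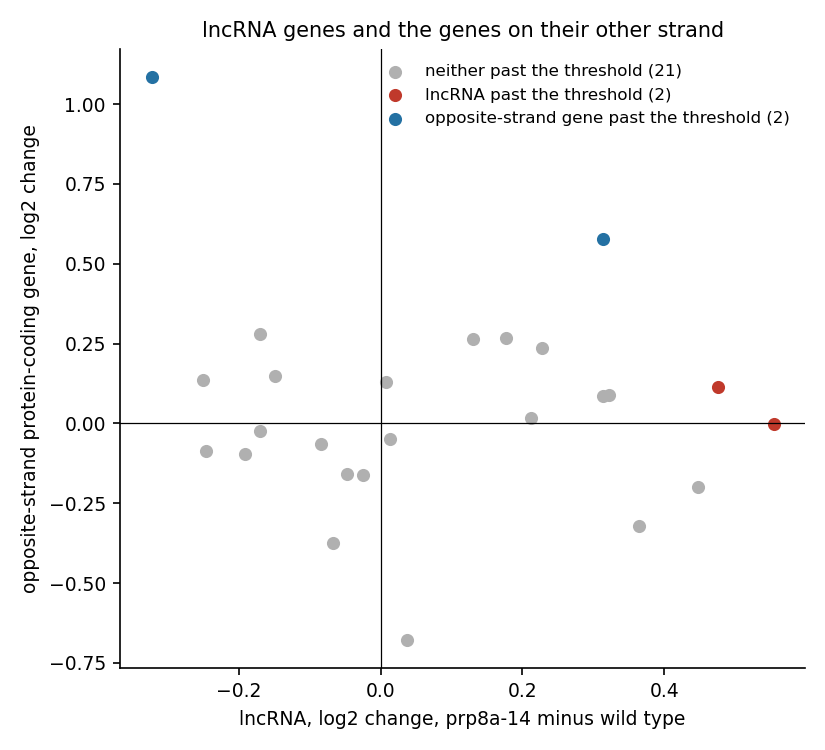
Log2 change (prp8a-14 minus wild type) of each lncRNA on the x axis and of the protein-coding gene on its opposite strand on the y axis, for 25 pairs. The 2 lncRNA genes that passed lie near 0 on the y axis, and the 2 partner genes that passed lie on either side of 0 on the x axis.

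The snoRNA genes guide the modification of ribosomal and small nuclear RNA. They are shown by the boxes that define the C/D class, which bind fibrillarin and its partners. The motifs searched were TGATGA (box C) followed by CTGA (box D, the last CTGA in the gene) on the gene's own strand. They were found in this order in 8 of the 10 genes and in 47.7% of 287 RefSeq snoRNA loci. Distance from the ends of the gene was not part of the search, so these are counts of motif matches. Both boxes are in capitals.
AT3G47348: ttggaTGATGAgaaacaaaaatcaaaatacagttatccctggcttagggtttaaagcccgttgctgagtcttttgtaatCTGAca
AT2G05765: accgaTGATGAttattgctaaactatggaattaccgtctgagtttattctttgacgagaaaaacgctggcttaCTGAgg

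Of the 10 snoRNA genes 0 rose and 0 fell with limma, where 35.2% of all listed genes passed. At an unadjusted p under 0.05, 1 snoRNA gene was higher and 1 lower, and voom weights called 0. Of the 19807 listed genes 4490 were higher and 4346 lower at that unadjusted level, and voom weights called 35.0%. The median log2 change was 0.20; it was 0.05 without mutant replicate 6, 0.12 without wild type replicate 3 and 0.10 with library totals. AT3G47348, the most abundant, stood at 4.90, 5.18 and 5.20 CPM in the wild type libraries and 6.15, 5.76 and 5.94 CPM in the mutant libraries. These groups did not overlap, with a log2 change of 0.22 (95% interval 0.00 to 0.44; limma with BH, adjusted p = 0.11), and limma without trend put it past the threshold (0.022). AT2G05765, at 1.08, 0.84 and 1.10 CPM against 0.49, 0.49 and 1.00 CPM, overlapped and had a log2 change of -0.68 with an interval of -1.40 to 0.04. AT1G74453 and AT1G74456 had log2 changes of -0.13 and 0.42, with intervals of -0.45 to 0.20 and -0.08 to 0.92.

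A further 11 snoRNA loci, which have no row of their own, lie inside 3 ncRNA genes. AT1G18745, with 4 of them, AT2G43375, with 2, and AT2G46192, with 5, had log2 changes of -0.22, -0.40 and 0.33, and none passed (limma with BH, adjusted p = 0.37, 0.11 and 0.14). Of 9 listed genes for core proteins of snoRNA particles 5 fell and 0 rose with limma, where 17.3% of all listed genes fell (6 and 0 at an unadjusted p under 0.05, and 4 and 0 with voom weights), and the median log2 change was -0.12. FIB2, a fibrillarin gene, fell by 0.42 on the log2 scale, from 82.1 CPM ± 5.26 to 61.5 CPM ± 3.00 (SD, n = 3), while its copy FIB1 had a change of 0.07. NOP56 and NOP5-1 and NOP5-2, the scaffold proteins of C/D particles, fell by 0.13, 0.21 and 0.12, and an H/ACA particle subunit (AT5G08180) by 0.12. Of these, NOP56, NOP5-2 and AT5G08180 lost their calls in limma without trend and when wild type replicate 1 or 3 or mutant replicate 5 was left out. So did NOP5-2 and AT5G08180 on dropping wild type replicate 2, and AT5G08180 with voom weights and on dropping mutant replicate 4; the log2 changes of these 3 genes were -0.096 or below in every alternative run. Among 13 genes of the nuclear exosome, which trims and degrades non-coding RNA, 1 rose and 1 fell, 15.4% against 35.2% of all listed genes. RRP44A rose by 0.22, a call lost with library totals. RRP4 fell by 0.31, a call lost under quantile normalization and in limma without trend. Dropping wild type replicate 2 or 3 or mutant replicate 5 also ended the call of RRP4, with falls of at least 0.19 over the alternatives.

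The 1 snRNA gene was U2.4 (AT3G56825). U2 snRNA pairs with the branch point of introns through the letters in capitals below, in the start of the U2 RNA as it lies in the RefSeq sequence of this locus.
U2.4: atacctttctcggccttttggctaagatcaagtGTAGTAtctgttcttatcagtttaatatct

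U2.4 was the rarest of the 160 genes. It stood at 0.681, 0.516 and 0.460 CPM in the wild type libraries and 0.959, 0.868 and 1.45 CPM in the mutant libraries. All mutant libraries were higher, and the log2 change was 0.96 (SE 0.30; limma with BH, adjusted p = 0.029). Dropping wild type replicate 2 or 3 or mutant replicate 6 ended the call, with log2 changes of 0.42 to 1.16 over the alternatives and adjusted p up to 0.12. RefSeq annotates this locus with 883 bases, of which 594 precede the stretch shown, and the deposited counts do not say where in the locus the reads lie. It also overlaps AT3G56830 over 180 bases and AT3G56820 over 34 bases on the same strand, and these genes had log2 changes of 0.33 and -0.09, neither past the threshold. The motif GTAGTA (own strand) was found in 13 of 23 RefSeq loci named U2, this one included, and U2 loci are alike, so reads of the copies may not be separable. The 1 tRNA gene, AT1G53410, stood at 1.06, 1.53 and 1.43 CPM and 1.38, 1.88 and 1.39 CPM, with overlapping groups and a log2 change of 0.21 (95% interval -0.29 to 0.71). It lies wholly against AT1G53400 on the opposite strand.

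The 18 nontranslating_CDS genes, protein coding in RefSeq, gave 3 rises and 4 falls, 38.9%, close to the 35.2% of all listed genes. SYTD, a synaptotagmin, stood at 6.60, 6.15 and 7.06 CPM in the wild type libraries and 3.00, 3.20 and 3.54 CPM in the mutant libraries. The groups were well apart, and the log2 change was -1.02 (SE 0.12; limma with BH, adjusted p = 5.2e-05), a 2.03-fold fall. RLK1, a receptor-like kinase, stood at 2.72, 1.80 and 2.64 CPM and 1.48, 1.02 and 1.23 CPM, a log2 change of -0.93 (limma with BH, adjusted p = 0.0077). BGLU5, of the beta-glucosidase family, and AT1G64460 fell by 0.37 and 0.29 on the log2 scale. The call of AT1G64460 ended on dropping wild type replicate 1 or 3 or mutant replicate 5 (adjusted p up to 0.074, log2 change -0.24 at the least).

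Rises in this class were smaller. BPG2, a chloroplast GTPase, stood at 22.6, 18.8 and 18.3 CPM in the wild type libraries and 27.2, 26.2 and 25.6 CPM in the mutant libraries, a log2 change of 0.41 (limma with BH, adjusted p = 0.0019). MKP1, a phosphatase of MAP kinases, and AT4G16150, described in the table as a calmodulin-binding transcription regulator, rose by 0.22 and 0.23. AT4G16150, at 96.9 CPM ± 2.67 in wild type and 114 CPM ± 2.75 in prp8a-14 (SD, n = 3), was the most abundant of the class. ELF8, a Paf1 complex subunit, did not overlap between genotypes (76.3, 74.7 and 74.3 CPM against 79.5, 78.4 and 76.9 CPM), but its log2 change of 0.06 did not pass. NRPD4, a subunit of the plant RNA polymerases of small RNA pathways, had a log2 change of 0.27 that did not pass (limma with BH, adjusted p = 0.12).

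The summed levels per library moved little. The 160 genes together held 1561, 1531 and 1518 CPM in the wild type libraries and 1493, 1550 and 1524 CPM in the mutant libraries, with overlapping groups (two-sided exact permutation test over 6 libraries, p = 0.50). The ncRNA sum was 860, 843 and 828 CPM against 782, 821 and 804 CPM, lower in every mutant library, by 4.90%. Without AT4G13495, GUT15 and AT4G36648, which held 34.1% to 37.5% of it, the sum was 561, 555 and 542 CPM against 497, 513 and 521 CPM. The miRNA sum was 50.2, 44.7 and 43.3 CPM against 38.7, 42.6 and 39.5 CPM, the snoRNA sum was 19.5 CPM ± 0.469 and 21.6 CPM ± 1.54 (SD, n = 3), and the nontranslating_CDS sum was 499 CPM ± 0.732 and 525 CPM ± 2.30 (SD, n = 3). The groups did not overlap in these classes, and the exact permutation p was 0.10, the smallest that 3 against 3 allows, or 0.14 with Benjamini-Hochberg adjustment over 7 biotypes. The lncRNA sum overlapped (126 CPM ± 2.29 and 131 CPM ± 4.28, SD, n = 3; exact permutation p = 0.30). With library totals the nontranslating_CDS and lncRNA sums were lower and not higher in the mutant.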

How the data were processed

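Poly-A RNA of 6 libraries, 3 per genotype, was compared. Per the submitters' processing notes, the tools included limma and edgeR, Salmon 0.8.2, featureCounts 1.4.6-p5 (Subread), STAR 2.5.1a and bcl2fastq, in roles that are not stated. The build, annotation and strand setting were not given in the sources used here. The deposited values are log2 CPM over library sizes scaled by the authors, with 0.5 added to each count. All came out as whole counts (tolerance 0.1), and 3 counts were worth 0.0484 to 0.0635 CPM. The authors' own fold, p-value and score columns in the deposited table were not used, nor were 3 columns of values that match no sample. Of 20079 lines 272 repeat a gene and were dropped.

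Differences were tested with limma 3.58.1 (R 4.3.3, eBayes with trend) on the log2 values of all 19807 genes, two-sided, with Benjamini-Hochberg adjustment at 0.05. The fit was tested on simulated counts that gave every gene the same dispersion, taken from abundant genes. That simulation does not show how the fit behaves for rare genes such as most of those described here. Fold changes of rare genes depend on the added 0.5 counts. Summaries, the exact permutation test and figures used Python 3.11.15, pandas 2.3.3, scipy 1.17.1 and matplotlib 3.10.9. Sequences, exons and overlaps came from RefSeq on TAIR10.1 by locus name; coordinates are left out because the build used for counting is unknown. The intervals are 95% limits of the fit.

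The genes, lists and tests were chosen with earlier results of these data known. Named genes are, per biotype, up to 4 rises and 4 falls past the threshold with non-overlapping groups and a mean level of 1 CPM or more, the 3 most abundant, every TAS gene, every MIR gene past the threshold and AT1G67105. Others were chosen after their values were seen. The alternatives were quantile normalization, library totals, a minimum mean of 5 CPM, pseudocounts of 0.1 and 1 CPM, limma without trend, voom weights, the fit without organelle genes and each library left out.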

Additional observations from a re-analysis of the deposited data

How the results depend on the processing

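Of the 29 genes past the threshold 18 kept it in every alternative run and 11 lost it in at least 1, all 11 of them when some single library was left out. None of these 29 changed direction; among the marker genes RBCS1A did, to -0.03 under quantile normalization. Over all listed genes, library totals gave 2110 rises and 5854 falls and moved the median log2 change to -0.09. Counts of rises and falls among the 160 genes were 19 rises under quantile normalization, 31 falls with library totals, 5 and 8 with a minimum mean of 5 CPM, and 17 rises without the trend. For ncRNA there were 3 rises and 21 falls with library totals and 2 and 6 at 5 CPM. For lncRNA the rises were 6 (quantile), 1 (library totals), 0 (5 CPM) and 7 (no trend), and the falls 1 with library totals and 1 without trend. The falls in nontranslating_CDS were 2 at 5 CPM. For miRNA quantile normalization gave 1 rise and 1 fall, voom weights 1 fall and 5 CPM 0. For snoRNA quantile normalization gave 1 rise, and limma without trend 1 rise and 1 fall. Median log2 changes under quantile normalization were 0.032 (all 160), 0.019 (ncRNA) and 0.15 (lncRNA). With library totals they were -0.11, -0.13, -0.069 and, for nontranslating_CDS, -0.12; the miRNA median was -0.031 at 5 CPM. Log2 ratios of summed levels with library totals were -0.11 (all 160), -0.17 (ncRNA), -0.040 (lncRNA), -0.024 (nontranslating_CDS) and -0.29 (miRNA). Under quantile normalization they were 0.12 (lncRNA) and 0.051 (nontranslating_CDS), and at 5 CPM 0.084 (nontranslating_CDS) and -0.052 (miRNA). With each library left out in turn, rises ran from 7 to 11 (all 160), 3 to 5 (ncRNA) and 0 to 3 (lncRNA), and falls from 0 to 1 (lncRNA), 1 to 2 (miRNA) and 0 to 1 (snoRNA). Medians then ran from -0.048 to -0.0041 (all 160), -0.057 to -0.017 (ncRNA), 0.0092 to 0.091 (lncRNA), 0.053 to 0.28 (snoRNA) and -0.050 to 0.0012 (nontranslating_CDS). Fewer genes were tested at 5 CPM and fewer libraries in the last set; the cause of the other shifts was not tested. No paired analysis was possible because the genotypes share no replicate number. Low counts limit the lncRNA, snoRNA, snRNA and tRNA genes.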
